A study of Schizosaccharomyces pombe with 6 samples.

Results

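The genes described here serve 3 vitamins in fission yeast (Schizosaccharomyces pombe). They are 10 of the 7016 features in the deposited table, chosen by name. Of these, 7 act on thiamine: nmt1 (SPCC1223.02), thi2 (SPBC26H8.01), thi4 (SPAC23H4.10c), thi1 (SPAC1486.10), thi9 (SPAC9.10), tnr3 (SPAC6F12.05c) and pho4 (SPBC428.03c). The biotin genes are vht1 (SPAC1B3.16c) and bio2 (SPCC1235.02), and bsu1 (SPAC17A2.01) serves pyridoxine, a form of vitamin B6. RNA came from asynchronous log-phase cultures in rich YES medium at 30 °C. Estradiol was added at 1 µM for 3 h to 3 cultures, and 3 control cultures received its ethanol vehicle. The labels name no strain or genotype for either group, and the title of the series concerns a promoter that estradiol switches on. GFP, the green fluorescent protein that such a promoter can drive, was listed at 147 ± 15.3 FPKM in the controls and at 714 ± 141 FPKM with estradiol (mean ± SD, n = 3 per group).

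Thiamine, once joined to diphosphate, is the cofactor of enzymes such as pyruvate decarboxylase and transketolase. Fission yeast builds it from a pyrimidine part made by Nmt1 and a thiazole part made by Thi2, which Thi4 joins. Thiamine in the medium shuts down nmt1, and the nmt1 promoter has long been the standard switchable promoter of this yeast for that reason. Biotin, or vitamin H, carries the carboxyl group in pyruvate carboxylase and acetyl-CoA carboxylase. The yeast extract in rich medium supplies vitamins, but the sources used here do not give their amounts.

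The transcripts were measured as FPKM, fragments scaled by gene length and by library size, so levels can be set roughly beside each other between genes. The annotation that gave the gene lengths is not named. The kit does not mark strand, so reads of genes that overlap on opposite strands may be mixed. How library size was scaled is not stated. The file holds no counts, and the absolute depth is unknown. A rough relative depth was estimated from the most common ratio of low values to those of control library 0. It ran from 0.688 to 1.301 over the 6 libraries, with control library 0 set to 1. In the other libraries only 5.83% to 16.2% of the low features used lay at that ratio. The estimate also takes in any scaling between libraries, so it is not a measured depth. Libraries are named by the table's column numbers 0, 1 and 2 within each group. A gene is called higher or lower where limma's adjusted p, from a fit to log2(FPKM + 1) over 6166 genes, is under 0.05. All log2 changes below are estradiol minus control on that scale, with limma's standard error (SE), and intervals are limma's 95% intervals.

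Of the 10 vitamin genes, limma called the biotin genes vht1 and bio2 lower with estradiol and called none higher. All 10 passed the minimum mean of 1 FPKM and were tested. Over all tested genes limma called 7.98% in either direction, 3.91% lower and 4.07% higher. With the column number as a block it called 506 genes higher and 524 lower, beside 251 and 241 without it, and among the vitamin genes it again called vht1 and bio2. None of the 7 thiamine genes was called, and 2 of them (nmt1 and pho4) had an unadjusted p under 0.05, as had 25.9% of all tested genes. The median log2 change was -0.03 for the 10 genes and 0.02 for all tested genes.

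**Figure D1:**
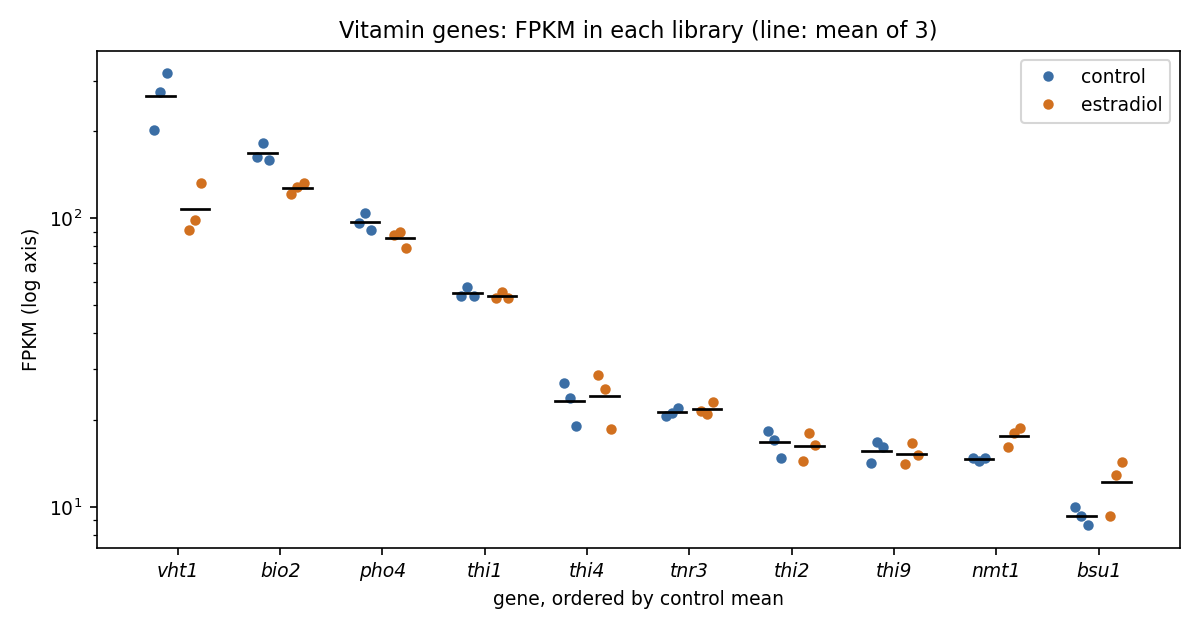
FPKM on a log axis for the 10 vitamin genes, ordered by their control mean, with a point for each control and estradiol library and a line at the mean of 3. The estradiol points of vht1 (90.8 to 133) lie below its control points (202 to 318), those of bio2 lie below its controls by less, and those of thi1, tnr3, thi2, thi4 and thi9 overlap with the controls.

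The sequences just before the annotated gene starts show a feature that most of these genes share. A TATA box is the element at which the basal transcription machinery binds before a start site. The stretches below are the 120 bases before the gene start on the gene's own strand, from RefSeq's ASM294v3 genome. They are shown for the genes whose groups of libraries did not overlap (vht1, bio2, nmt1 and pho4) and for the other thiamine synthesis genes thi2 and thi4. Capitals mark TATAAA or TATATA, including where the motifs overlap each other.
nmt1, chrIII:1838295-1838414, plus strand: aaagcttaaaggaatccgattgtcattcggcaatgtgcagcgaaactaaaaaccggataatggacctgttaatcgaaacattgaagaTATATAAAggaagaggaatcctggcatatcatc
thi2, chrII:3940406-3940525, plus strand: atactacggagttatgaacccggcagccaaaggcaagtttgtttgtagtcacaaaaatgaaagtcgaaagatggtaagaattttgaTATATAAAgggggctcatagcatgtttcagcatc
thi4, chrI:1589813-1589932, plus strand: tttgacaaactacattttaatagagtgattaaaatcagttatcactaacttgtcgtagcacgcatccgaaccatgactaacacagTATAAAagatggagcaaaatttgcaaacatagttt
pho4, chrII:447029-447148, minus strand: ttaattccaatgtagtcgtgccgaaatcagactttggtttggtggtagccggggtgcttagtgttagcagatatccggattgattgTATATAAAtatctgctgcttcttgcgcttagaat
vht1, chrI:4960911-4961030, minus strand: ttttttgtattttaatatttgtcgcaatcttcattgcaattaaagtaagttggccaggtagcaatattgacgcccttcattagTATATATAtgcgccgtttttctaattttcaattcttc
bio2, chrIII:176697-176816, plus strand: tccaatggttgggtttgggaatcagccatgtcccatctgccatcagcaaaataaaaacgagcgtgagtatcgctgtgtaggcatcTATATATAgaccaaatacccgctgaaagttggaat

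TATAAA on the gene's own strand began 31 bases before the start of nmt1, 32 before thi2 and pho4, and 35 before thi4. A first base between 25 and 40 bases before the start was found in 4 of the 10 vitamin genes and in 4.39% of 5104 protein-coding genes searched the same way. TATATA began in that window in 6 of the 10 (nmt1, thi2, thi9, pho4, vht1 and bio2) and in 6.64% of all. The overlapping letters TATATAAA of nmt1, thi2 and pho4 count for both motifs. The motifs and the window were not among the planned tests, and the window encloses the distances found in these genes. The shares are therefore descriptions and do not test for an excess. In vht1 and bio2 the letters were TATATATA with no TATAAA on either strand within 250 bases. Such a stretch held a TATAAA on either strand in 5 of the 10 vitamin genes and in 44.4% of all genes. No TATA letters of either kind were found before thi1, which encodes the activator itself, before tnr3 or before bsu1. GCGTGGGCG, the site of the zinc-finger protein Zif268 that is used in estradiol-switched activators, was absent on both strands from the 250 bases before all 10 genes, as it was before all 5104 genes. These are matches of letters and were not tested as binding sites.

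vht1 (SPAC1B3.16c), which encodes the plasma membrane transporter that takes up biotin, had the largest change of the 10. Its level was 202, 275 and 318 FPKM in control libraries 0, 1 and 2, and 90.8, 98.7 and 133 FPKM in the estradiol libraries. The highest estradiol library lay well below the lowest control library. The mean went from 265 ± 58.4 to 108 ± 22.5 FPKM (n = 3 per group), a log2 change of -1.29 (SE 0.20, interval -1.76 to -0.81, limma adjusted p = 0.0157). The exact 2-sided permutation p over libraries was 0.1, the smallest that 3 against 3 allow. The control libraries themselves spread widely, with a coefficient of variation of 22.0%, and the estradiol libraries followed the same order by column number. Estradiol over control was 0.449, 0.359 and 0.419 for the libraries numbered 0, 1 and 2, and with the number as a block the SE fell to 0.07 (limma adjusted p = 0.00207). The call was lost without control library 1 (log2 change -1.25, limma adjusted p = 0.0676) or without estradiol library 1 (-1.24, limma adjusted p = 0.0681), and narrowly with no filter on low values (limma adjusted p = 0.052).

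bio2 (SPCC1235.02), which encodes biotin synthase, the enzyme of the last step of biotin synthesis, fell by a smaller amount. It had 163, 183 and 159 FPKM in control libraries 0, 1 and 2, and 121, 129 and 133 FPKM with estradiol. All estradiol values lay below all control values. The mean went from 168 ± 12.8 to 128 ± 6.14 FPKM (log2 change -0.39, SE 0.07, interval -0.57 to -0.22, limma adjusted p = 0.0271), and the exact permutation p was 0.1. When 1 library was left out the call of bio2 held only without control library 2, with limma adjusted p from 0.0444 to 0.0896 over the 6 fits. It was also lost under quantile normalization and cyclic loess normalization (both -0.32, limma adjusted p = 0.068 and 0.0621).

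The biotin genes traded places in the order of levels. In the controls the vht1 level was 1.24, 1.504 and 2.003 times that of bio2, and with estradiol it was 0.751, 0.766 and 1.00 times (ratio of FPKM within libraries 0, 1 and 2). The control range of vht1 lay above that of bio2, and with estradiol their ranges overlapped. SPAC1B3.15c, the gene next to vht1 on the same strand and 491 bases past its end, is annotated as a vitamin H transporter too. It was far lower, at 9.98 ± 0.93 FPKM in the controls and 12.2 ± 0.63 FPKM with estradiol, and was not called (log2 change 0.27, limma adjusted p = 0.155).

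**Figure D2:**
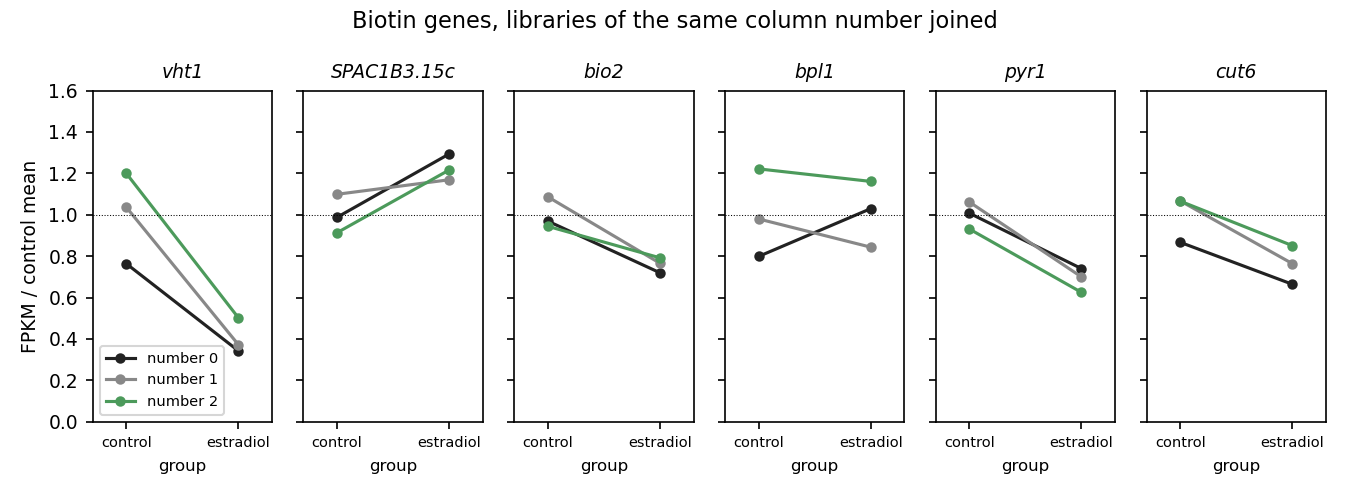
FPKM divided by the gene's control mean in each control and estradiol library for 6 biotin genes, with lines joining libraries of the same column number. All 3 lines go down for vht1, bio2, pyr1 and cut6, while those of bpl1 cross and those of SPAC1B3.15c go up.

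Of the 3 genes that use or attach biotin, 1 was called, in the direction of a fall, beside 7.98% of all tested genes called in either direction. pyr1 encodes pyruvate carboxylase, which makes oxaloacetate from pyruvate. It went from 251 ± 16.4 to 172 ± 14.6 FPKM (log2 change -0.54, SE 0.08, limma adjusted p = 0.0157), and its groups did not overlap. The call of pyr1 was lost without control library 0, control library 1 or estradiol library 1 (limma adjusted p = 0.06, 0.0676 and 0.065). cut6, the acetyl-CoA carboxylase gene that starts fatty acid synthesis, had a log2 change of -0.40 and missed the threshold (410 ± 47.3 to 312 ± 38.3 FPKM, limma adjusted p = 0.0957). With the block cut6 was called lower (limma adjusted p = 0.00858). Under quantile and cyclic loess normalization its log2 change was -0.21 in both fits and it was not called (limma adjusted p = 0.44 and 0.401). bpl1, whose product attaches biotin to these enzymes, stood at 4.37 ± 0.93 and 4.42 ± 0.70 FPKM, with an interval of the log2 change from -0.44 to 0.48.

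The thiamine synthesis genes differed by little between the groups. nmt1 (SPCC1223.02) encodes the enzyme that makes the pyrimidine part of thiamine. It had 14.8, 14.4 and 14.7 FPKM in the controls and 16.2, 18.1 and 18.8 FPKM with estradiol. Every estradiol library lay above every control library, a separation of the groups, in either direction, that 31.2% of all tested genes showed and 4 of the 10 vitamin genes (vht1, bio2, nmt1 and pho4). The log2 change was 0.25 (SE 0.09, interval 0.05 to 0.45), and the limma adjusted p of 0.12 missed the threshold. The interval of the fold ran from 1.03 to 1.37. Under quantile and cyclic loess normalization the log2 change of nmt1 was smaller, at 0.14 and 0.15 (limma adjusted p = 0.372 and 0.311).

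thi2, the gene for the enzyme that makes the thiazole part, had 18.4, 17.1 and 14.8 FPKM in the controls and 14.5, 18.04 and 16.4 FPKM with estradiol. The groups overlapped over most of their range, and the log2 change was -0.04 (interval -0.32 to 0.24, limma adjusted p = 0.876). thi4, whose product joins the thiazole and pyrimidine parts, had 27.0, 24.0 and 19.0 FPKM and then 28.7, 25.6 and 18.7 FPKM. Estradiol over control was 1.07, 1.07 and 0.982 for the libraries of thi4 numbered 0, 1 and 2, and the groups overlapped. Its log2 change was 0.05 (interval -0.39 to 0.49), and the SE fell from 0.18 to 0.07 with the block, with a limma adjusted p of 0.667. The opposite-strand gene cdb4, for a DNA-binding protein of a peptidase family, lies inside the annotated span of thi4 and covers 36.9% of it. cdb4 stood at 417 ± 16.2 FPKM, far above thi4, and fell to 298 ± 5.36 FPKM (limma adjusted p = 0.00723). The kit does not mark strand, and the part of cdb4 reads in the values of thi4 was not tested.

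tnr3 encodes the diphosphokinase that turns thiamine into its active form. It stood at 21.3 ± 0.66 FPKM in the controls and 21.9 ± 1.10 FPKM with estradiol (log2 change 0.04, interval -0.13 to 0.21). thi9, the gene of the plasma membrane thiamine transporter, stood at 15.7 ± 1.36 and 15.3 ± 1.27 FPKM (log2 change -0.03, interval -0.28 to 0.21). thi1 encodes the zinc-cluster transcription factor that switches on the thiamine genes. Its interval was the narrowest of the 10, with 53.8, 57.7 and 53.9 FPKM in the controls and 53.0, 55.5 and 52.9 FPKM with estradiol. The log2 change of thi1 was -0.03 with an interval from -0.18 to 0.11.

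pho4 encodes an acid phosphatase that thiamine represses. It was the most abundant of the thiamine genes, with 96.6, 104 and 91.1 FPKM in the controls and 87.7, 89.4 and 79.2 FPKM with estradiol. The estradiol values lay just below the controls, without overlap. The log2 change was -0.19 (SE 0.08, interval -0.37 to -0.0041), with a limma adjusted p of 0.185 and of 0.0501 with the block. The phosphate-responsive genes pho1, another acid phosphatase gene, and pho84, a phosphate transporter gene, had log2 changes of -1.32 (limma adjusted p = 0.0431) and -1.66 (limma adjusted p = 0.0153). Of the fits that left out 1 library, the call of pho1 held only without control library 2 (highest limma adjusted p = 0.118), and that of pho84 was lost without control library 0 or estradiol library 1 (0.0554 and 0.0659). With no filter on low values both calls were lost (limma adjusted p = 0.107 for pho1 and 0.0511 for pho84). That of pho1 was also lost under quantile normalization (0.0569), under cyclic loess normalization (0.0636) and without the intensity trend (0.0682).

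bsu1, which encodes an importer of vitamin B6, was the lowest of the 10. It had 10.03, 9.35 and 8.65 FPKM in the controls and 9.33, 12.9 and 14.3 FPKM with estradiol. Libraries 1 and 2 with estradiol lay above all controls and library 0 lay among them. The log2 change was 0.33 (SE 0.16, interval -0.05 to 0.72, limma adjusted p = 0.25), and without estradiol library 0 it was 0.50 (limma adjusted p = 0.0616). Under quantile and cyclic loess normalization it was 0.16 and 0.21 (limma adjusted p = 0.586 and 0.481).

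**Figure D3:**
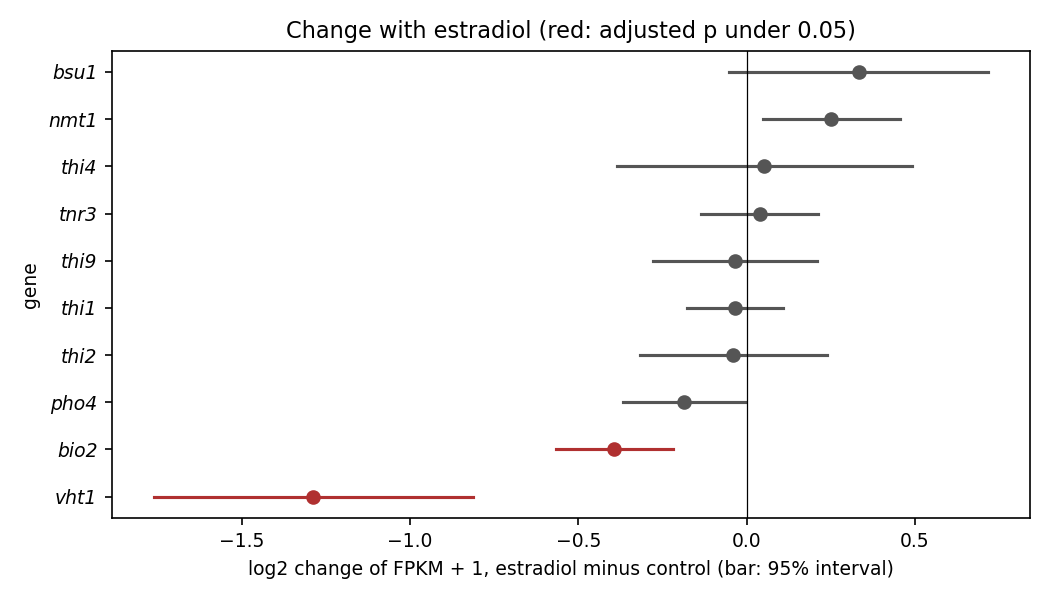
Change of each vitamin gene with estradiol on the log2(FPKM + 1) scale, with limma's 95% interval and the genes with an adjusted p under 0.05 in red. vht1 (-1.29) and bio2 (-0.39) are red, the intervals of nmt1 and pho4 just miss 0 on either side, and the other 6 intervals include 0.

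By level the 10 genes formed a staircase with a low group. In the controls the order was vht1, bio2, pho4 and thi1, each above the next without overlap, then thi4, tnr3, thi2, thi9, nmt1 and bsu1, all at 27.0 FPKM or less in every library. The ranges of thi4 and tnr3 overlapped, and so did those of thi2, thi9 and nmt1 with each other. With estradiol bio2 came before vht1, and nmt1 moved from the ninth place to the seventh, with a range that again overlapped with those of thi2 and thi9. nmt1, which is among the most strongly expressed genes of this yeast when thiamine is lacking, had a control mean above 34.8% of all 7016 features. That of vht1 lay above 93.4% and that of bio2 above 90.0%.

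The nearest protein-coding neighbours of the genes that fell were not called. The gene divergent from vht1 is clr2, 3582 bases away, with a log2 change of -0.05 (limma adjusted p = 0.768). Before bio2 on the same strand lies SPCC1235.01, an uncharacterized gene with a log2 change of -0.60 (225 ± 41.2 to 148 ± 27.5 FPKM, limma adjusted p = 0.0784). After bio2 lies cue2, with 0.25 (limma adjusted p = 0.0885). The neighbours of nmt1 are hel2, a ubiquitin ligase gene (0.13), and gut2, a glycerol-3-phosphate dehydrogenase gene (0.15), with limma adjusted p of 0.452 and 0.497. Those of pho4 are apq12 (0.06, limma adjusted p = 0.773) and eca39, an amino acid aminotransferase gene that fell (-0.53, limma adjusted p = 0.0199). The eca39 call was kept only without control library 2 or estradiol library 0 (highest limma adjusted p = 0.0771).

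All 10 genes have their coding sequence in 1 exon in ASM294v3. vht1 spans chrI:4958698-4960910 on the minus strand, bio2 chrIII:176817-178818 on the plus strand and nmt1 chrIII:1838415-1839664 on the plus strand. All but tnr3 are overlapped on the opposite strand by another annotated gene, 13 lncRNAs (long non-coding RNAs) and cdb4 in all. Of the 13 lncRNAs 3 have values in the table. SPNCRNA.1234 covers all of nmt1 and was listed at 4.56 ± 0.91 FPKM in the controls and 5.36 ± 1.4 FPKM with estradiol (limma adjusted p = 0.641). SPNCRNA.1358 covers 6.7% of pho4 and had a log2 change of -0.18 (limma adjusted p = 0.243), and SPNCRNA.743 at the start of thi9 was listed at 0.95 ± 0.61 and 1.28 ± 0.64 FPKM. Of the lncRNAs without values, SPNCRNA.4231 covers 64.5% of vht1 and SPNCRNA.3584 covers 87.8% of bsu1. The kit does not mark strand, so reads of these lncRNAs and of the genes they overlap cannot be told apart by strand. Their part in the values was not tested.

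Other genes of the thiamine pathway gave 1 call in 6, beside 7.98% of all tested genes. thi7, annotated only as a transporter, is not in this list. It is named because its values lay nearest to those of bio2 among 5041 genes, and it is described below. Like bio2 it was called lower (log2 change -0.39, limma adjusted p = 0.0252). Since bio2 had been called lower, that choice set the direction of thi7, and its call is not a separate result. The 6 listed genes are thi5, which encodes a second zinc-cluster factor of the thiamine genes, the pyrimidine kinase genes thi20, thi201 and SPCC18B5.05c, and 2 genes annotated as thiamine or thiamine pyrophosphate transporters. SPCC794.03, annotated as a thiamine transporter, rose from 6.85 ± 0.58 to 10.3 ± 0.84 FPKM (log2 change 0.53, SE 0.11, limma adjusted p = 0.0383). That call was lost when any single library was left out (limma adjusted p = 0.0541 to 0.12) and under quantile or cyclic loess normalization (0.12 and 0.102). thi5 had a log2 change of -0.07 (limma adjusted p = 0.755), thi20 of 0.07 (0.651) and thi201 of 0.21 (0.158). The median over the 6 was 0.07.

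Enzymes that use thiamine diphosphate gave 1 call in 8, beside 7.98% of all tested genes. ilv1 encodes the catalytic subunit of acetolactate synthase, an enzyme of valine and isoleucine synthesis. It fell from 303 ± 11.1 FPKM in the controls to 247 ± 10.8 FPKM (log2 change -0.30, SE 0.06, limma adjusted p = 0.0312). Of the fits that left out 1 library, its call held only without estradiol library 0 (highest limma adjusted p = 0.113). It was also lost under quantile normalization, where the log2 change was -0.17, under cyclic loess normalization (-0.14) and without the intensity trend (limma adjusted p = 0.0568). pdc201, a pyruvate decarboxylase gene with low levels, had the largest value of the list (0.34, limma adjusted p = 0.369). pdc101, the abundant pyruvate decarboxylase gene, stood at 5390 ± 598 and 4453 ± 937 FPKM (log2 change -0.29, limma adjusted p = 0.321). pdb1, a pyruvate dehydrogenase subunit gene, had -0.23 (limma adjusted p = 0.133, and 0.0478 with the block). tkt1, the transketolase gene, had -0.08 (limma adjusted p = 0.585), and the median of the list was -0.16 in the main fit. Some of these signs depended on the scaling. Under quantile and cyclic loess normalization tkt1 had 0.23 and 0.19, and pda1, another pyruvate dehydrogenase subunit gene, had 0.02 and 0.004. pdc101 had -0.15 and 0.09 in these fits, while pdb1 had -0.14 and -0.12 and kgd1, the alpha-ketoglutarate dehydrogenase gene, -0.12 and -0.11. The ninth gene of the list, pdc102, was below the minimum mean.

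**Figure D4:**
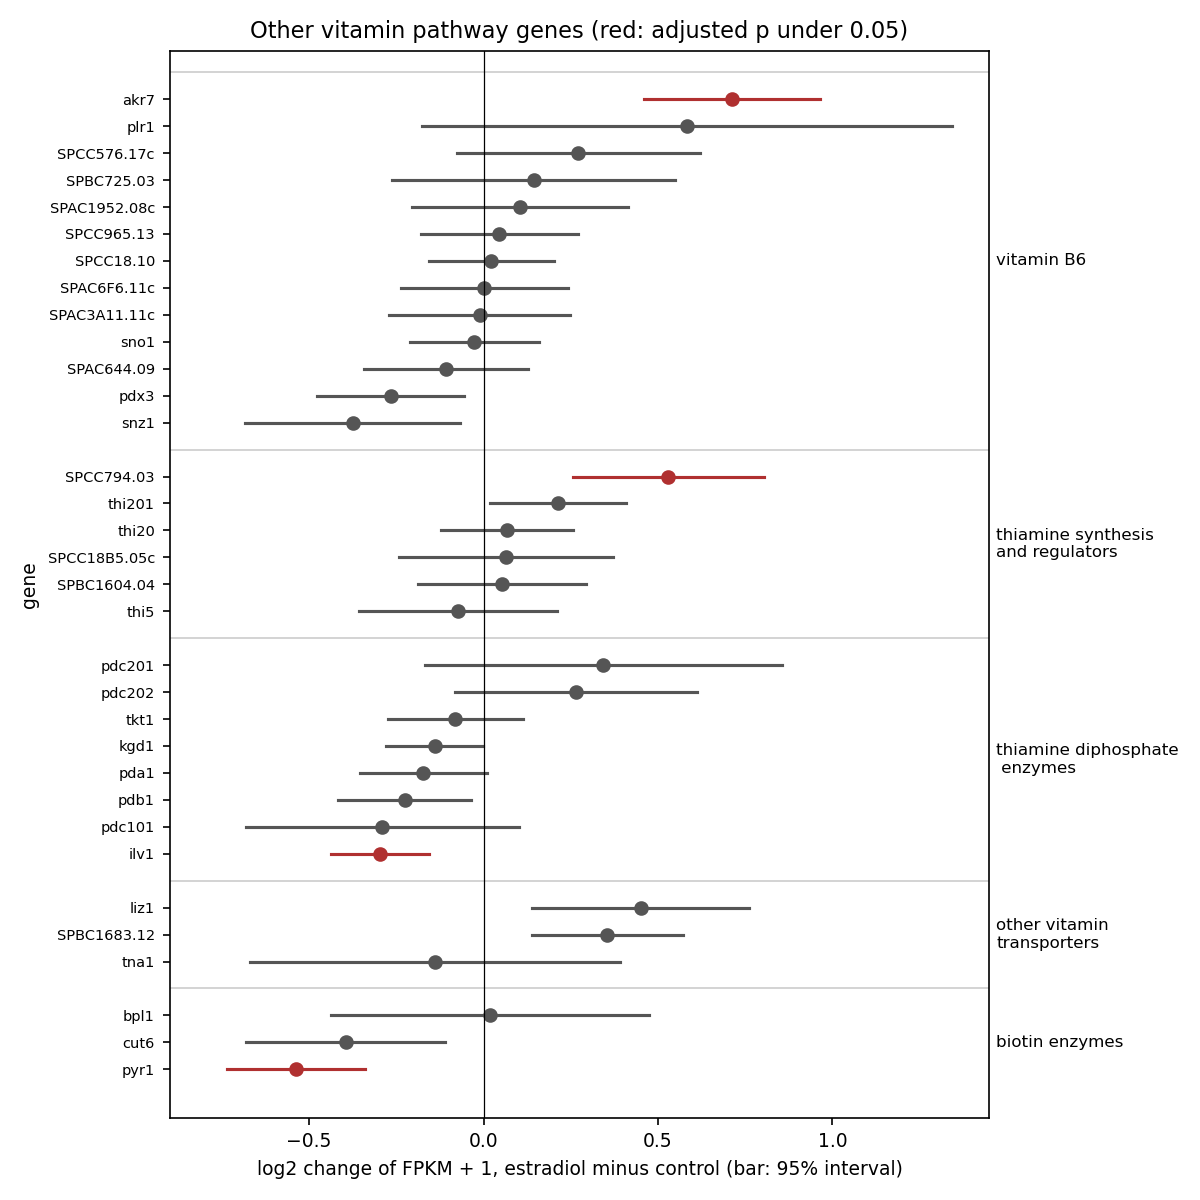
Change of 33 other vitamin genes with estradiol on the log2(FPKM + 1) scale, grouped by list, with limma's 95% interval and called genes in red. akr7 (0.71), SPCC794.03 (0.53), ilv1 (-0.30) and pyr1 (-0.54) are red, and most other intervals include 0.

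Of 13 other vitamin B6 genes, 1 rose and 12 were not called, a share of calls near the 7.98% of all tested genes. akr7, annotated as a pyridoxal reductase gene, rose from 8.31 ± 0.91 to 14.2 ± 0.41 FPKM (log2 change 0.71, SE 0.11, limma adjusted p = 0.0151). The call of akr7 was kept without control library 2 or estradiol library 0 and lost without any other library (highest limma adjusted p = 0.0659). snz1, the pyridoxal phosphate synthase gene, had -0.37 (527 ± 71.1 to 406 ± 52.4 FPKM, limma adjusted p = 0.125), and its partner gene sno1, for the glutamine-splitting subunit, had -0.03. With the block limma also called snz1 (adjusted p = 0.00768) and the oxidase gene pdx3 (-0.27, adjusted p = 0.0188) lower and the reductase gene plr1 (0.58, adjusted p = 0.00527) higher. Under quantile and cyclic loess normalization snz1 had -0.18 and -0.17, pdx3 -0.24 and -0.23 and plr1 0.74 and 0.76. None of these was called there. The median of the list was 0.02.

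Transporters of other vitamins were not called in either direction. liz1, the pantothenate transporter gene, went from 22.0 ± 2.71 to 30.4 ± 4.07 FPKM (log2 change 0.45, limma adjusted p = 0.0868), and SPBC1683.12, annotated as a nicotinic acid transporter gene, had 0.35 (limma adjusted p = 0.0628). With the block both were called higher (limma adjusted p = 0.0136 and 0.0436), and under quantile normalization neither was (limma adjusted p = 0.162 and 0.145). tna1, a further nicotinic acid transporter gene, had -0.14 (limma adjusted p = 0.752). By unadjusted p, 2 of the 3 were under 0.05 without the block, beside 25.9% of all tested genes.

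The genes most like each called vitamin gene and nmt1 were taken as those whose 6 log2 values, centred on their own mean, differed least by root mean square among 5041 genes with a mean of at least 10 FPKM. Nearest to bio2 was thi7 (0.0145 on the log2 scale), whose namesake in budding yeast is a thiamine transporter. thi7 went from 82.8 to 63.0 FPKM (log2 change -0.39, limma adjusted p = 0.0252), and its call was kept only without control library 2 or estradiol library 0 (highest limma adjusted p = 0.0851). It was followed by byr3 (0.0476), a translational activator gene, and sgt2 (0.053). Nearest to vht1 were SPAC3G6.05 (0.175), SPAC227.17c (0.189) and SPCC330.03c (0.206), with log2 changes of -0.98, -1.03 and -1.22. Nearest to nmt1 were rpc82, ski3 and tmf1 at 0.034 to 0.035, with log2 changes from 0.22 to 0.27. Likeness over 6 libraries says only that the values run alongside each other. Genes chosen this way share the direction of the gene they were set beside.

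**Figure D5:**
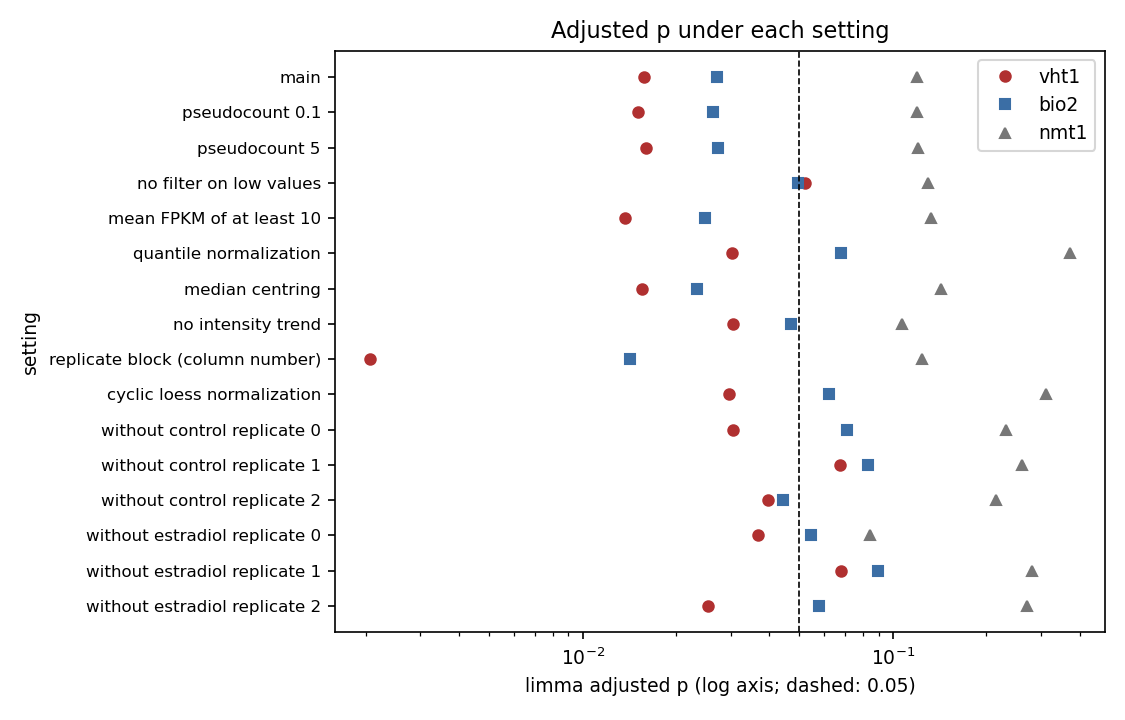
limma's adjusted p on a log axis for vht1, bio2 and nmt1 under the main setting and 15 alternatives, with a dashed line at 0.05. vht1 lies left of the line in all but 3 alternatives, bio2 lies on both sides of it, and nmt1 lies right of it throughout.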

How the data were processed

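The authors deposited FPKM values for each library by itself. The tools were CASAVA 1.4, TopHat2 and Cuffdiff, per the submitters' processing notes, whose roles are not stated. No source used here names the build, the annotation or a scaling between libraries. Ribosomal RNA was removed before TruSeq libraries were made and sequenced as read pairs, per the labels' protocols. Where FPKM is scaled to a library's total, a fall in abundant genes raises all others. Whether that holds here is not known. The FPKM of all features added up to between 831139 and 876214 in the control libraries and between 767792 and 798655 in the estradiol libraries.

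Condition numbers in the column names were matched to the sample titles, whose treatment labels define the groups. The column numbers were not tied to the labels' replicate numbers. An alternative fit took the column number as a block. Deviations from group means correlated at 0.152, 0.212 and 0.146 between libraries of the same number, and at -0.149 to -0.011 between the others. Whether the numbers mark true pairs was not tested. What same-numbered libraries share is not stated. The series design calls the cultures biological triplicates.

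limma 3.58.1 in R 4.3.3 was fitted to log2(FPKM + 1) of the 6166 features with a mean of at least 1 FPKM (850 were not tested), with an intensity trend, 2-sided, with Benjamini-Hochberg adjustment over all of them. The fit was also run on simulated libraries with independent noise. These held no scaling differences between libraries and nothing shared by column number, so they do not bear on those settings. Names, positions and sequence came from ASM294v3, to which 6845 identifiers matched and 171 did not. The members, lists and tests were chosen with earlier results of these data known. The text names the 10 members, the called genes and the one with the largest change of each pathway list, pho1 and pho84, overlapping genes, and the 3 genes most like each called member and nmt1. Neighbouring genes and other genes of the lists were named after their values were seen. The alternatives changed the pseudocount, the filter or the scaling, dropped the trend, added the block or left out a library, and cyclic loess normalization was added after the data were seen. Python 3.11.15 drew figures and searched motifs.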

Additional observations from a re-analysis of the deposited data

How the results depend on the processing

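The 2 calls among the vitamin genes, vht1 and bio2, kept their direction under all 15 alternatives. The log2 change of vht1 ran from -1.47 to -1.14 and that of bio2 from -0.43 to -0.32. The number of vitamin genes called lower was 1 with no filter on low values, where vht1 had a limma adjusted p of 0.052, and 1 under quantile normalization and under cyclic loess normalization, where bio2 had 0.068 and 0.0621. It was 0 to 2 when 1 library was left out, with 0 without control library 1 or estradiol library 1. No vitamin gene was called higher under any alternative. Over all tested genes the number called higher was 144 under quantile normalization and 506 with the replicate block, and 49 to 242 with 1 library left out. The number called lower was 108, 524, and 37 to 207 in the same fits, and 109 under cyclic loess normalization. The block changed the call of none of the 10 vitamin genes.

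Among the thiamine genes that were not called, some small changes crossed 0, and none of these fits called them by limma. thi4 had a log2 change of -0.034 under quantile normalization, -0.011 under cyclic loess normalization, -0.080 without control library 2 and -0.073 without estradiol library 0. tnr3 had -0.046, -0.033 and -0.00037 under quantile normalization, under cyclic loess normalization and without estradiol library 2. thi2 had 0.025 without control library 0 and 0.038 without estradiol library 0, and thi9 had 0.013 without control library 1 and 0.019 without estradiol library 0. With 1 library left out, thi4 ran from -0.080 to 0.22, tnr3 from -0.00037 to 0.065, thi2 from -0.12 to 0.038 and thi9 from -0.10 to 0.019. The cause was not tested. The files give no counts, so what depth limits in the low genes such as bsu1 cannot be stated.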
